A study of Mus musculus with 43 samples.

Results

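The 34 genes described here encode the enzymes that make cholesterol and fatty acids, the proteins that sense sterols and switch those enzymes on, and a pair of sterol exporters. They were listed by name. Of the 34 genes, 30 had a probe set that carried no other gene's symbol and were measured, among 22180 genes measured in this way. Not measured here were Idi1, Scd2 and Acsl3, whose probe sets also carried the symbol of another gene, and Acat2, which no probe set of the annotation used here named. By role, all 4 sterol sensing genes, 5 of 7 genes of the mevalonate branch, all 11 genes from squalene to cholesterol, the sterol carrier gene Stard4, 7 of 9 fatty acid genes and both sterol efflux genes were measured.

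The cells were mouse CD4 T cells with the transgenic AND receptor, which recognizes a moth cytochrome c (MCC) peptide. The donors were Rag2-deficient and CD45.1+, and the cells were transferred into other mice and sorted back as CD4+ CD90.2+ CD45.1+ cells. In iMCC recipients, doxycycline in the drinking water switches on an invariant chain construct that carries the MCC epitope in dendritic cells, so the drug sets the antigen dose. The iMCC groups compared below thus differ in the drug itself as well as in antigen, and these cannot be told apart. All iMCC recipients received an anti-CD40 antibody and 100 µg/ml doxycycline the day before the transfer. On day 3 the drug was stopped in the group named none, lowered to 10 µg/ml in the group named low and kept at 100 µg/ml in the group named int (intermediate). The off group kept 100 µg/ml to day 10 and then had none until day 30. The high group came from cMCC recipients, a separate strain whose MHC class II positive cells express the construct constitutively. No doxycycline was given there, and high therefore differs from the other groups in recipient strain as well as in antigen. Per the labels, these cells die by apoptosis by day 30, so high was sampled on day 10 only. The naive group held AND cells recovered on day 3 from recipients that carried none of these transgenes. There were 5 arrays for naive cells, 5 each for none and low and 4 each for int and high on day 10, and 5 each for none, low, int and off on day 30, which makes 43 in 9 groups.

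Cholesterol is built from acetyl-CoA through mevalonate, farnesyl diphosphate and squalene, while cytosolic acetyl-CoA from citrate feeds fatty acid synthesis. When membrane sterol is scarce, Scap carries the precursors of the SREBP factors, encoded by Srebf1 and Srebf2, out of the endoplasmic reticulum, and the released factors activate genes of both pathways. When sterol is plentiful, Insig1 holds Scap back, and the exporters Abca1 and Abcg1 are induced through LXR receptors. T cells entering division after antigen recognition are known to raise SREBP activity, since new membranes need both kinds of lipid.

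Promoter sequence was available for 26 of the 34 genes, in windows of 250 bases before to 50 bases after the annotated start (RefSeq, GRCm38.p6). Each window was searched on both strands for TCACNCCAC, the core of a classic sterol regulatory element, for CCAAT, the Y box bound by NF-Y, and for GGGCGG, the GC box bound by Sp1. The first was found in 1 of 26 genes, Hmgcs1 (3.85%), against 1.44% of 27025 genes in the table. CCAAT was found in 20 of 26 (76.9%, against 41.1%) and GGGCGG in 22 of 26 (84.6%, against 38.2%). The 27025 genes were not matched to the 26 for expression level or base composition. A match is a run of letters and not a bound site, and a window without one says only that these letters are absent there. The 3 windows below are shown for Hmgcs1, with the only sterol element core, and for Insig1 and Pmvk, called higher in off than in int cells and in high than in none cells, which were picked after their values were seen. Capitals mark matches to any of the 3 motifs on either strand. The Pmvk window is 1 of 2 annotated for the gene.
Hmgcs1, chr13:119690101-119690400, plus strand: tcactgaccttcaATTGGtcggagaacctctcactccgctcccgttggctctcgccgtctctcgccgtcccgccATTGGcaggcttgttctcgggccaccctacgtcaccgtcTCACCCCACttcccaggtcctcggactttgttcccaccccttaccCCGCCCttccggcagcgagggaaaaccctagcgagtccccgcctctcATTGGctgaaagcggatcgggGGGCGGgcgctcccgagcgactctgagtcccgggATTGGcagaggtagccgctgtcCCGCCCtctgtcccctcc
Insig1, chr5:28071162-28071461, plus strand: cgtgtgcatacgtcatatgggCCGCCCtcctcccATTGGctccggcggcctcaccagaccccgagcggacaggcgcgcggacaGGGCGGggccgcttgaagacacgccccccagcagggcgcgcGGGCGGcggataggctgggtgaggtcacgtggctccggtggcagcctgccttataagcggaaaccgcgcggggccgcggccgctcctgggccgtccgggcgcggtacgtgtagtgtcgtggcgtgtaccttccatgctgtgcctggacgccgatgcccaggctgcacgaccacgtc
Pmvk, chr3:89454291-89454590, plus strand: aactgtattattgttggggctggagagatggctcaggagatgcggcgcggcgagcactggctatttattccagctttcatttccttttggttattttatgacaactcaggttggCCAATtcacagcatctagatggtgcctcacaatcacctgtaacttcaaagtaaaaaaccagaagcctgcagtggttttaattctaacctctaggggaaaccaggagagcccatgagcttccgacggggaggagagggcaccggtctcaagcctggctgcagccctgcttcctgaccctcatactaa
In the Hmgcs1 window the sterol element core TCACCCCAC begins 137 bases before the start (position -137) and lies among 4 Y boxes and 3 GC boxes. The Insig1 window holds 1 Y box and 3 GC boxes, and the Pmvk window printed here holds 1 Y box and no GC box.

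All levels below are log2 signals as deposited, and a difference of 1 is a 2-fold change. Differences are log2 fold changes ± SE from a single limma model over all arrays, and a gene is called where its p, adjusted by Benjamini and Hochberg's method over 22180 genes, is under 0.05. Whether the samples of a group are separate animals is not stated in the labels, and p-values therefore cover only the spread among these samples, part of which may be technical. Markers of CD4 T cells were high on every array, with list means of 10.13 to 10.69. Naive replicates 3 and 4 stood apart, with means of 5.99 and 5.3 over 7 of 8 B cell genes and 6.31 and 5.63 over 11 of 12 myeloid genes, against 4.02 to 4.34 and 3.96 to 4.74 on the other 3 naive arrays. The day 30 samples were sorted in a second series, and the day cannot be told apart from that series. In bulk RNA, fewer cells with a transcript and less of it per cell cannot be told apart either.

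As a group these genes differed little in mean level between the conditions of a day. The mean over the 30 genes lay between 4.79 ± 0.11 (SD, n = 5, int on day 30) and 5.10 ± 0.18 (n = 5, low on day 10). Over the 16 enzymes of the mevalonate and squalene steps the group means ran from 4.72 ± 0.05 (off, day 30) to 5.00 ± 0.09 (none, day 10). The 7 fatty acid genes ranged more, from 4.15 ± 0.14 (none, day 30) to 4.65 ± 0.11 (low, day 10). On all 3 means, the ranges of the arrays of any 2 groups of the same day overlapped or touched. Groups of different days did not always overlap as deposited. Over the 30 genes, none arrays of day 10 (4.98 to 5.14) lay above the low (4.88 to 4.95), int (4.62 to 4.92) and off (4.81 to 4.95) arrays of day 30. They overlapped with none on day 30 (4.68 to 5.00). The fatty acid genes stood at 4.46 to 4.76 in low cells of day 10 and at 3.93 to 4.28 in none cells of day 30. Single genes moved further than the means did: an F test over the 9 groups, added after the data had been seen, called 9 of 30 genes (30%), against 15.7% of all genes. Dim genes pass such a test less often, and 8 of the 30 had a mean below 4. Among genes at or above 4 it called 8 of 22 (36.4%), beside 2749 of 8412 (32.7%), a share near the background. The 9 were Acly, Pmvk, Fasn, Sqle, Elovl6, Insig1, Abca1, Srebf2 and Hmgcs1.

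**Figure D1:**
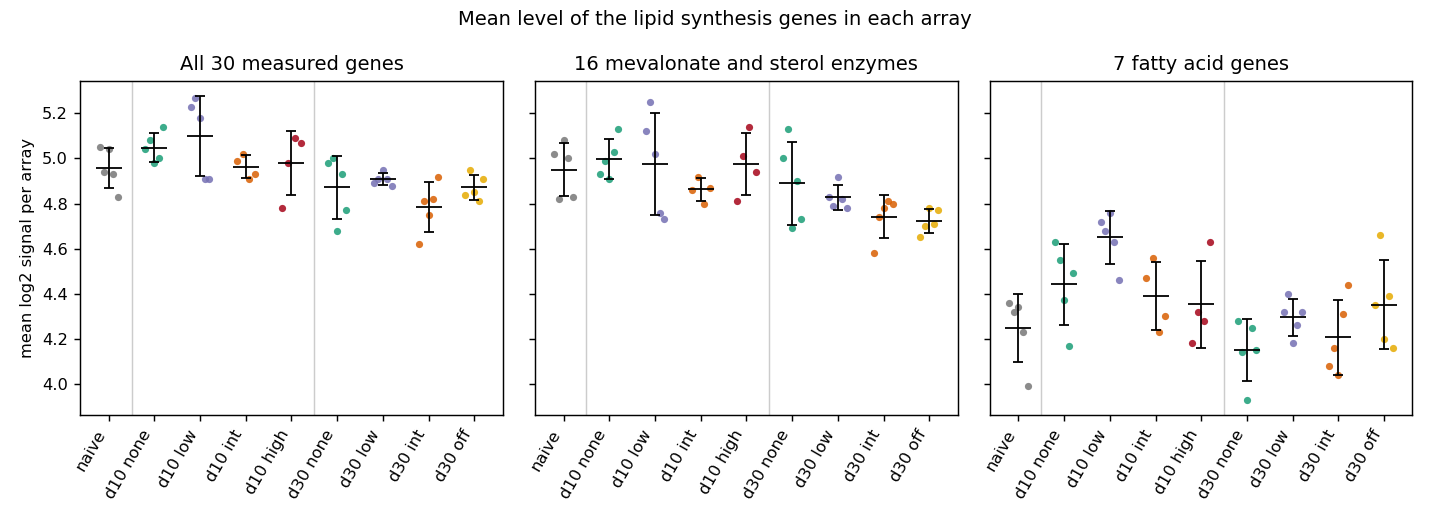
Mean log2 signal of each array over all 30 measured genes, the 16 mevalonate and sterol enzymes and the 7 fatty acid genes, by group (d10 and d30: days after transfer; bars: mean and SD). The 9 group means of the 30 genes stay within 4.79 to 5.10.

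**Figure D2:**
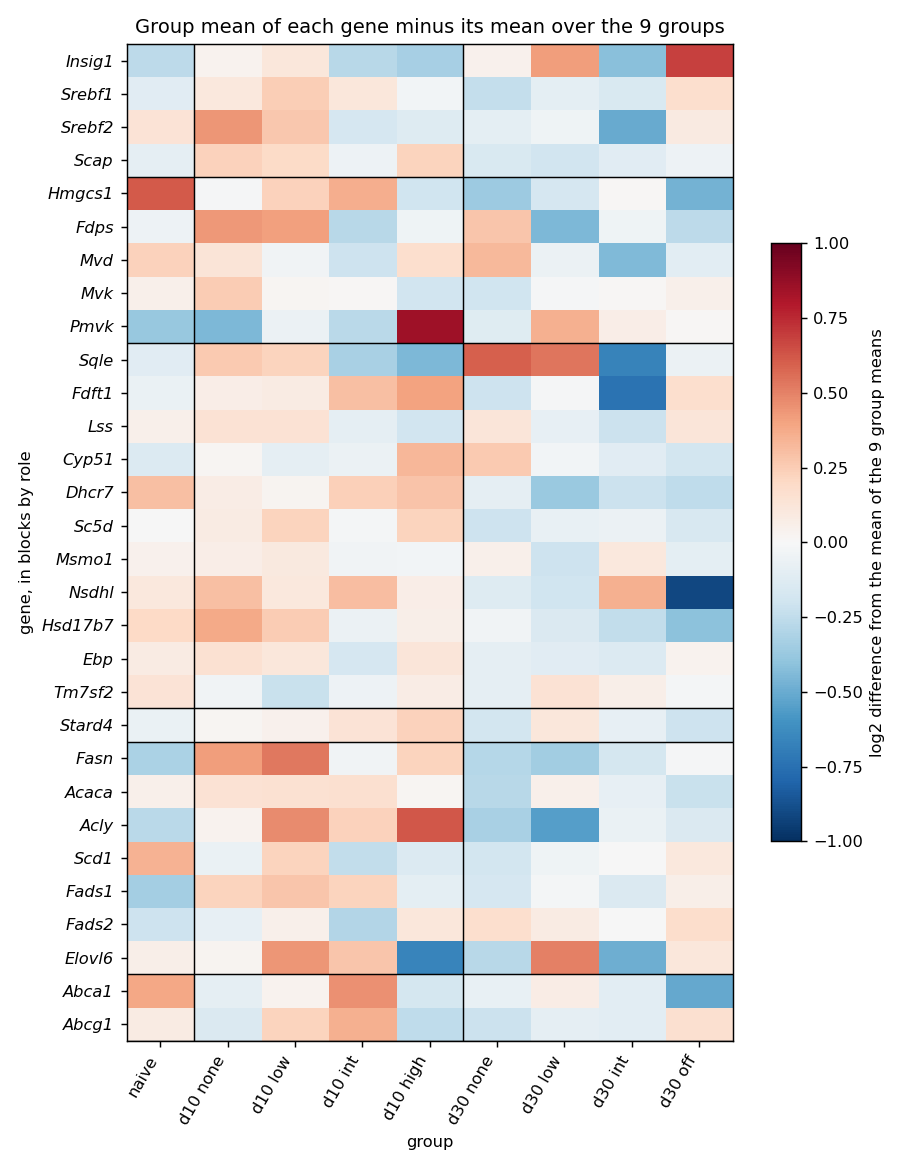
Group mean of each measured gene minus its mean over the 9 groups, on the log2 scale, with genes in blocks by role. Pmvk is highest in high cells on day 10, Insig1 is highest in off cells and Sqle is lowest in int cells on day 30.

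On day 10, the dose of persisting antigen was compared with no antigen. Low against none called 0 of the 30 genes, where limma called 0.00451% of all genes, and 1 of 30 had an unadjusted p under 0.05 (3.43% of all genes). The arrays of the groups did not overlap for 1 of 30, beside 1.03% of all genes. Every one of the 30 intervals (95%) lay within a log2 change of 1 in either direction. Int against none called 0 of 30, against 1.24% of all genes, although single receptor-induced genes differed strongly in the same cells. Lag3, an inhibitory receptor, stood 4.12 ± 0.45 higher (adjusted p = 6.43e-08) and Irf4, a factor of activated T cells, 2.82 ± 0.30 higher (adjusted p = 6.43e-08). Of 14 measured growth and nutrient genes of activated T cells, Irf4 among them, 2 were called higher, 1 lower and 11 not called. Here arrays did not overlap for 1 of 30 (4.83% of all genes), 5 of 30 lipid genes had an unadjusted p under 0.05, beside 8.88% of all genes, and 27 of 30 intervals lay within 1. The median of the 30 differences was -0.088, beside -0.01 over all genes. High against none called 1 of 30, Pmvk, which was higher, against 5.25% of all genes in either direction and 2.77% higher, with a median of -0.1 beside 0.014. In that comparison the arrays did not overlap for 2 genes that were higher and 1 that was lower, beside 6.5% of all genes in either direction. Int against low called 0 of 30 (0.541% of all genes), with 3 of 30 at an unadjusted p under 0.05 (5.83% of all genes) and no overlap for 2 (3.72%). High against int called Pmvk alone, as higher (2.99% in either direction, 1.4% higher), and it was also the 1 gene without overlap (7.46%). The comparisons with none share the same 5 control arrays.

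On day 30, low against none again called 0 of 30 genes (0.654% of all genes), with 3 at an unadjusted p under 0.05 (11% of all genes) and 0 without overlap (1.66%). Int against none called 1, Sqle, which was lower (2.21%; 0.794% lower), with 0 genes free of overlap (2.93%). Int against low called 1, again Sqle as lower (0.546%; 0.248% lower), with 2 genes free of overlap (1.53%). Off cells, which had lost antigen on day 10, did not differ from none in any of the 30 by this test (0.266% of all genes; 4 at an unadjusted p under 0.05, beside 11.1% of all genes), and all 30 overlapped, where 1.67% of all genes did not. In off against int, doxycycline and with it antigen had been taken away on day 10. This comparison called 1, Insig1, as higher (0.464%; 0.266% higher), which was also the 1 gene without overlap (1.5%). The effect of int on day 30 minus that on day 10 was called for 0 of 30 (0.0902%), and that of low for 0 of 30 (0.0316%), with 2 and 1 genes at an unadjusted p under 0.05 (6.7% and 5.45% of all genes). The intervals of these differences of differences are wide, and 17 and 24 of 30 lay within 1.

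Against naive cells, none on day 10 called 1 gene, Fasn, as higher (3.3% of all genes; 1.9% higher), and had 1 gene without overlap (3.5%). None on day 30 called 1, Hmgcs1, as lower (4.33%; 2.35% lower), also the 1 gene without overlap (3.94%). Int on day 10 called 0 (3.15%; 2 at an unadjusted p under 0.05, beside 12.1% of all genes), and all 30 overlapped (5.69% of all genes did not). High called 2, Pmvk and Acly, as higher (4.82%; 2.91% higher), and these 2 did not overlap (5.47%). Between the days, none on day 30 against day 10 called 1, Fasn, as lower (3.43%; 1.93% lower), with 0 genes free of overlap (4.13%) and a median of -0.22 over the 30 genes beside 0.024 over all. That shift depends on the scaling: the difference of the mean over the 30 genes was -0.18 as deposited and -0.04 after quantile normalization, and that over the 16 cholesterol enzymes was -0.11 and 0.05. Int on day 30 against day 10 called 0 (0.712%; 3 at an unadjusted p under 0.05, beside 11.4% of all genes), with 2 genes free of overlap (4.87%) and a median of -0.16 beside 0.023. Naive cells differ from the iMCC groups in time, recipient genotype and doxycycline as well as in priming, and from high cells in time and recipient genotype as well. The anti-CD40 antibody, stated above for iMCC recipients only, may differ too.

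**Figure D3:**
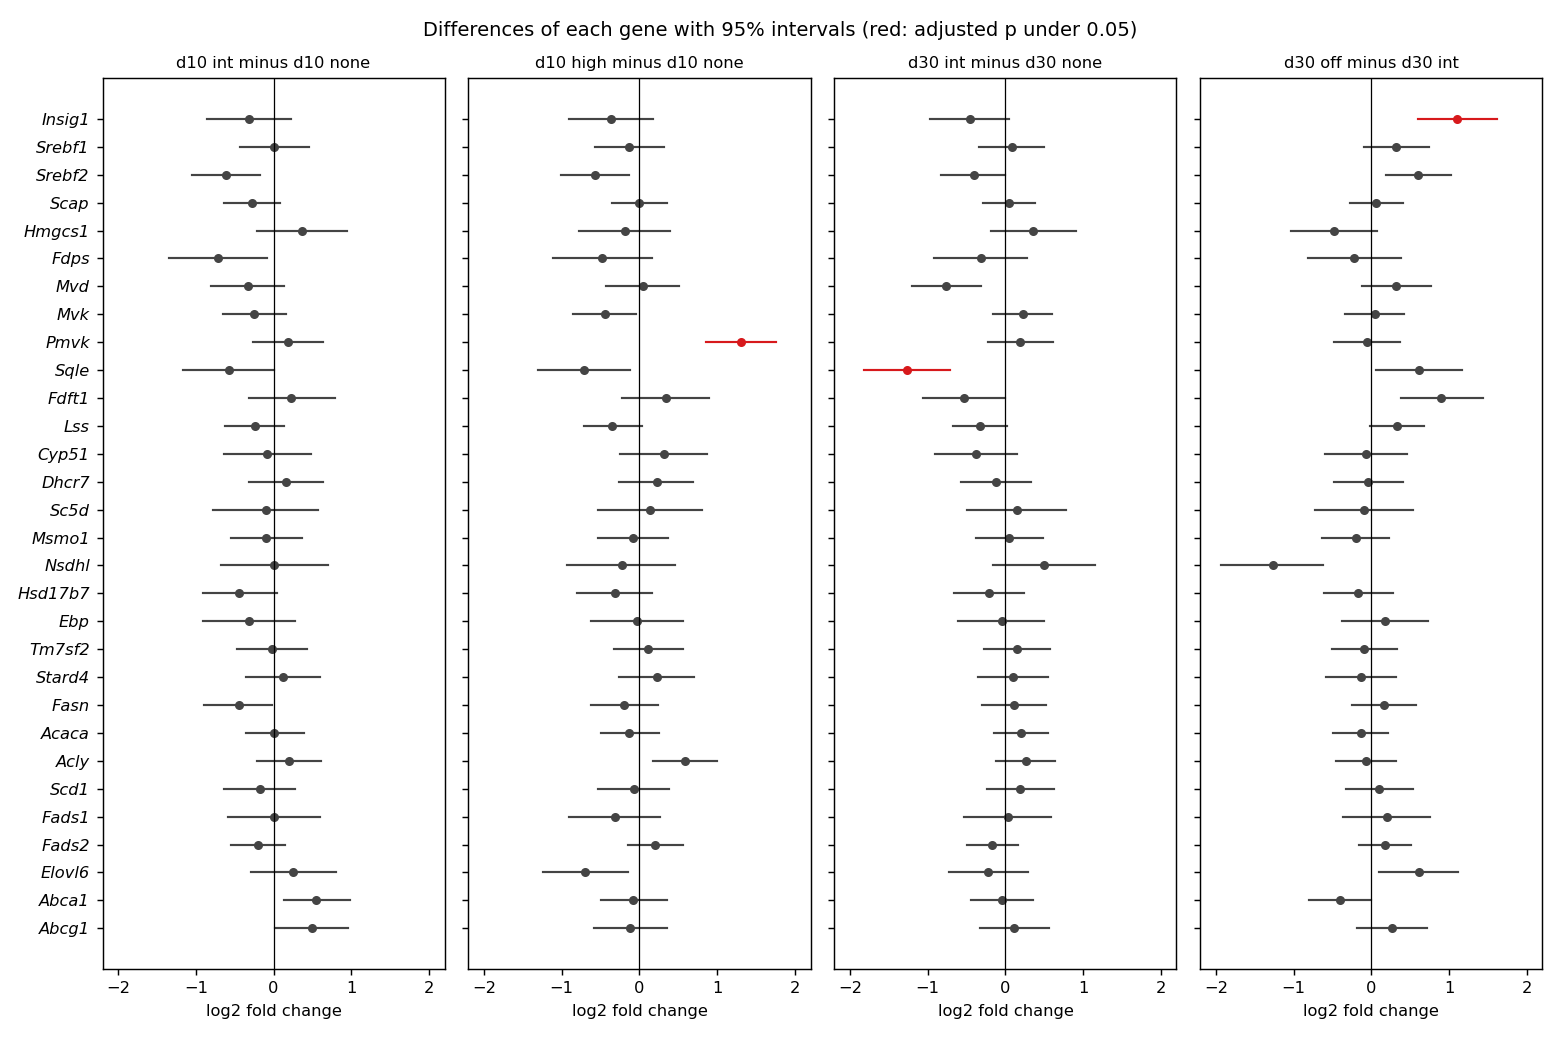
Log2 fold change and 95% interval of each measured gene in 4 comparisons (red: adjusted p under 0.05, limma, Benjamini-Hochberg over all genes). Pmvk at 1.30 in high, Sqle at -1.26 in int on day 30 and Insig1 at 1.10 in off against int are the called genes.

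Among the sterol sensing genes, Insig1 was the one called. Insig1 encodes the endoplasmic reticulum protein that retains Scap, and is itself a target of the SREBP factors. On day 30 the 5 off arrays read 6.88, 7.08, 6.48, 6.49 and 7.88, and the 5 int arrays 5.04, 6.12, 5.81, 6.05 and 6.27. All off arrays lay above all int arrays. The difference was 1.10 ± 0.25 (95% interval 0.60 to 1.61, limma adjusted p = 0.0233). The call was lost without int replicate 1 (0.90, adjusted p = 0.132), without int replicate 3 (1.09, adjusted p = 0.0549) and without off replicate 5 (0.87, adjusted p = 0.165), and also with only these 2 groups in the fit (adjusted p = 0.215). Low cells on day 30 read 6.64, 6.9, 6.9, 6.49 and 6.53, also above every int array, but this difference of int minus low was not called (-0.83 ± 0.25, adjusted p = 0.157). None stood between, at 6.32 ± 0.35 (SD, n = 5), and overlapped with both int and off. Off minus none was 0.64 ± 0.25 (adjusted p = 0.308). The mean of the 11 myeloid markers was 4.21 to 4.76 on the off arrays, 3.91 to 4.35 on the int arrays and 3.56 to 4.13 on the none arrays, and its part in the Insig1 result was not tested.

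Srebf2, which encodes the SREBP that chiefly drives cholesterol genes, was highest in none cells on day 10 (7.93, 7.6, 7.43, 7.34 and 7.8) and lowest in int cells on day 30 (6.73, 6.39, 6.81, 6.32 and 7.1). It passed the F test (adjusted p = 0.0258) but no single comparison. On day 10 the int arrays read 6.46, 7.4, 7.2 and 6.99, of which 1 lay within the range of none, and int minus none was -0.61 ± 0.22 (limma adjusted p = 0.248). High minus none was close to this in size, at -0.57 ± 0.22 (adjusted p = 0.136). Off minus int on day 30 was 0.60 ± 0.21 (adjusted p = 0.308). Srebf1, the isoform gene tied more to fatty acid synthesis, varied less, with group means of 5.01 (none, day 30) to 5.49 (low, day 10). Its int minus none difference was 0.01 (95% interval -0.43 to 0.45) on day 10 and 0.08 (-0.34 to 0.49) on day 30. Scap, the SREBP escort, had group means of 6.51 to 6.93.

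In the mevalonate branch, Pmvk was the gene called in high cells. The high group differs from the iMCC groups in recipient strain and doxycycline as well as in antigen, and these cannot be told apart. It may also differ in the anti-CD40 antibody, which is stated above for iMCC recipients only. Pmvk encodes phosphomevalonate kinase, which adds the second phosphate to mevalonate. The high arrays read 5.75, 5.71, 5.91 and 5.6, and the none arrays of day 10 4.47, 4.37, 4.81, 4.3 and 4.27. No high array overlapped with any other array of day 10 or with any naive array. High exceeded none by 1.30 ± 0.22 (95% interval 0.85 to 1.75, limma adjusted p = 6.26e-05), int by 1.12 ± 0.23 (adjusted p = 0.00211) and naive by 1.23 ± 0.22 (adjusted p = 0.000123). These calls held when any array of the groups compared was left out, and the difference from naive was 1.32 without naive replicates 3 and 4 (adjusted p = 0.000296). Int arrays of day 10 spread from 4.21 to 5.18 around a mean of 4.62 ± 0.43 (n = 4), and int minus none was 0.18 (95% interval -0.27 to 0.63). On day 30, low cells had the highest mean of the 4 groups, 5.25 ± 0.43 (n = 5), and low minus none was 0.48 ± 0.21 (adjusted p = 0.366). Of the 18 measured cell cycle genes, 9 were also called higher in high than in none cells on day 10, beside 2.77% of all genes. Top2a, the topoisomerase of dividing cells, was 2.74 ± 0.21 higher (adjusted p = 4.97e-13). High against naive called 2 of the 18 as higher (2.91% of all genes), and the mean of the list was 5.47 in high and 5.4 in naive cells. The part of cell division in the Pmvk result was not tested.

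Hmgcs1 encodes the cytosolic HMG-CoA synthase that commits acetyl units to mevalonate. It was highest in naive cells, at 6.28, 5.86, 6.85, 5.91 and 5.95. None cells of day 30 read 5.02, 4.91, 4.98, 5.29 and 5.82, all below the naive arrays, though the highest was only just below. The difference was -0.97 ± 0.27 (95% interval -1.51 to -0.42, limma adjusted p = 0.0288). It lost its call without naive replicates 3 and 4, the arrays with B cell and myeloid signal (-0.83, adjusted p = 0.157), or without any 1 of naive replicates 1 and 3 and none replicates 1, 2 and 3 (-0.80 to -0.94, adjusted p from 0.0593 to 0.114). Naive replicate 3 alone stood at 6.85. With only these groups in the fit the adjusted p was 0.0615. On day 10 the none arrays (5.54, 5.52, 5.75, 5.19 and 5.76) also lay below every naive array, with a difference of -0.62 ± 0.27 that was not called (adjusted p = 0.304). Antigen did not move Hmgcs1 past the threshold on either day, and int minus none was 0.37 (95% interval -0.21 to 0.95) on day 10 and 0.36 (-0.19 to 0.91) on day 30.

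**Figure D4:**
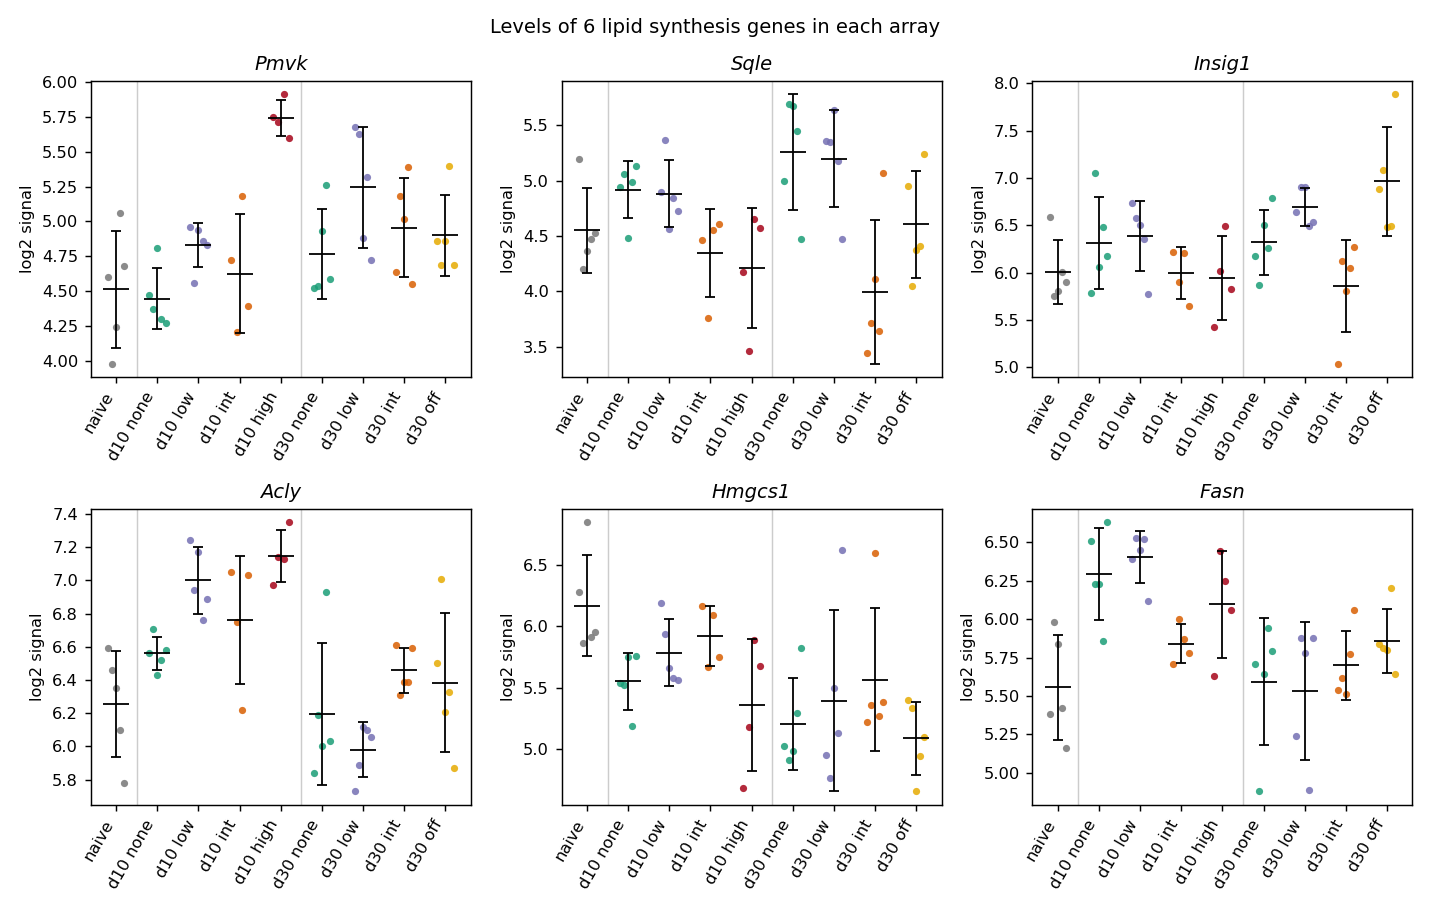
Log2 signal of Pmvk, Sqle, Insig1, Acly, Hmgcs1 and Fasn on each array, by group (d10 and d30: days after transfer; bars: mean and SD; axes do not start at 0). The high arrays of Pmvk read 5.6 to 5.91, above all other day 10 and naive arrays, and 4 of 5 int arrays of Sqle on day 30 lie below all none arrays.

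Fdps, Mvd and Mvk, the other measured enzymes of this branch, were not called. Fdps, which makes farnesyl diphosphate, read 5.34, 5.16, 5.08 and 5.12 in int cells of day 10, below all none arrays (5.57, 5.63, 5.44, 6.52 and 6.31). That difference of -0.72 ± 0.31 had an adjusted p of 0.446 and an interval of -1.35 to -0.08. Mvd, the decarboxylase that ends the mevalonate steps, came nearest to a call on day 30, where int minus none was -0.76 ± 0.22 (adjusted p = 0.0547). Its int arrays read 3.41, 3.91, 3.19, 4.05 and 3.1 and its none arrays 4.19, 4.5, 3.83, 4.71 and 4.23, so that 3 of the int arrays lay below the range of none.

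From squalene to cholesterol, Sqle was the only one of 11 genes called. Sqle encodes squalene epoxidase, an oxygen-dependent control step of the pathway. On day 30 its int arrays read 3.44, 3.71, 4.11, 3.64 and 5.07, its none arrays 5.0, 5.69, 5.68, 5.45 and 4.47 and its low arrays 5.36, 5.35, 5.64, 5.18 and 4.47. Int replicate 5, at 5.07, lay inside the range of none and low, and the other 4 int arrays lay below both. Sqle was lower in int than in none cells by -1.26 ± 0.27 (95% interval -1.82 to -0.71, limma adjusted p = 0.00417). That call held when each array was left out in turn (adjusted p from 0.000276 to 0.0251) and was missed with only these groups in the fit (adjusted p = 0.0583). The difference from low, -1.21 ± 0.27 (adjusted p = 0.0246), held in 3 of 10 such fits. It was lost without low replicate 1, 2, 3 or 4 or int replicate 1, 2 or 4, with adjusted p up to 0.0922, and with array weights (adjusted p = 0.0551) or only these groups in the fit (adjusted p = 0.168). Off cells stood at 4.60 ± 0.48 (SD, n = 5), between int (3.99 ± 0.65) and none (5.26 ± 0.52), and differed from neither past the threshold (off minus int 0.61 ± 0.27, adjusted p = 0.581; off minus none -0.65 ± 0.27, adjusted p = 0.351).

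On day 10 Sqle stood at 4.92 ± 0.26 (n = 5) in none, 4.88 ± 0.30 (n = 5) in low, 4.34 ± 0.39 (n = 4) in int and 4.21 ± 0.54 (n = 4) in high cells. Neither int minus none (-0.57 ± 0.29, limma adjusted p = 0.588) nor high minus none (-0.71 ± 0.29, adjusted p = 0.181) was called. The effect of int on day 30 minus that on day 10 was -0.69 (95% interval -1.50 to 0.12, adjusted p = 0.802). A difference between the days was thus not shown.

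The other 10 genes of this stretch were Fdft1, Lss, Cyp51, Dhcr7, Sc5d, Msmo1, Nsdhl, Hsd17b7, Ebp and Tm7sf2. Fdft1, squalene synthase, which acts just before Sqle, read 4.72, 5.31, 5.5, 5.39 and 5.26 in int cells on day 30 and 6.21, 6.26, 6.14 and 6.49 in int cells on day 10. The groups did not overlap, and the difference of -1.04 ± 0.28 had a limma adjusted p of 0.058. Nsdhl, a sterol dehydrogenase of C4 demethylation, had the largest difference of the 30 genes in off minus int (-1.27 ± 0.32, adjusted p = 0.062). Its off arrays read 4.3, 5.13, 5.42, 4.1 and 4.16 and its int arrays 5.78, 5.82, 5.84, 5.41 and 6.62, with 1 off array just inside the int range. None of the remaining genes was called in any comparison. Hsd17b7, the 3-keto reductase of C4 demethylation, had group means of 2.95 (off) to 3.74 (none, day 10), and Dhcr7, the reductase that yields cholesterol, of 4.97 (low, day 30) to 5.64 (naive). Sc5d, the sterol desaturase, ranged from 6.39 to 6.82. The 9 group means of Msmo1, the C4 methyl oxidase, lay within 4.73 to 5.04, those of Ebp, the sterol isomerase, within 5.26 to 5.58, and those of Tm7sf2, a C14 reductase, within 4.68 to 5.05. Lss, lanosterol synthase, ranged from 3.12 to 3.48 and Cyp51, the lanosterol demethylase, from 4.03 to 4.54. Stard4, a cytosolic sterol carrier, had group means of 4.24 to 4.68.

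Of the fatty acid genes, Acly and Fasn were called. Acly encodes ATP citrate lyase, the source of cytosolic acetyl-CoA for both pathways, and had the smallest F test p of the 30 genes (adjusted p = 0.000114). Its high arrays read 6.97, 7.14, 7.13 and 7.35, and its naive arrays 6.59, 6.46, 6.35, 6.1 and 5.78. High exceeded naive by 0.89 ± 0.20 (95% interval 0.48 to 1.30, limma adjusted p = 0.00294), with no overlap. The call held on leaving out each array, and without naive replicates 3 and 4 (0.87, adjusted p = 0.0203). The none arrays of day 10 (6.56, 6.71, 6.43, 6.52 and 6.58) lay below all high arrays and below all low arrays (7.24, 6.94, 7.17, 6.76 and 6.89). Neither difference was called (high minus none 0.59 ± 0.20, adjusted p = 0.0855; low minus none 0.44 ± 0.19, adjusted p = 1). On day 30 the 5 low arrays (5.73, 5.89, 6.12, 6.1 and 6.06) lay below the 5 int arrays (6.61, 6.31, 6.39, 6.39 and 6.59), again without a call. In order of group mean Acly ran from low on day 30 (5.98) to high on day 10 (7.15), and each 2 neighbours in that order lay closer together than the larger of their SDs.

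Fasn encodes fatty acid synthase. None cells of day 10 read 6.51, 6.23, 6.23, 5.86 and 6.63 and naive cells 5.38, 5.98, 5.84, 5.42 and 5.16, with 1 none array inside the naive range. Fasn was higher by 0.74 ± 0.20 in none (95% interval 0.33 to 1.14, limma adjusted p = 0.0289). In none cells of day 30 it read 5.71, 4.88, 5.64, 5.94 and 5.79, lower than on day 10 by -0.70 ± 0.20 (adjusted p = 0.0422). Both calls were close to the threshold. The first was lost without naive replicates 3 and 4 (0.79, adjusted p = 0.0975), with only these groups in the fit (adjusted p = 0.0967), or without any 1 of naive replicates 1, 4 and 5 and none replicates 1, 2, 3 and 5 (adjusted p up to 0.111). The second was lost after quantile normalization (-0.54, adjusted p = 0.125), after centring (adjusted p = 0.0547), with only these groups in the fit (adjusted p = 0.134), and without any 1 of 8 arrays: replicates 1, 2, 3 and 5 of either group (adjusted p up to 0.151). On day 10 int arrays (5.71, 6.0, 5.87 and 5.78) lay below all low arrays (6.39, 6.53, 6.45, 6.52 and 6.12), with a difference of -0.56 ± 0.22 (adjusted p = 0.5).

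Elovl6, which lengthens palmitate to stearate, passed the F test (adjusted p = 0.00508) with group means from 3.42 (high, day 10) to 4.58 (low, day 30). Its high arrays read 3.25, 3.26, 3.03 and 4.12 and its int arrays of day 10 4.54, 4.95, 3.58 and 4.39. High minus int was -0.95 ± 0.28 (limma adjusted p = 0.055), and int minus low on day 30 was -0.99 ± 0.25 (adjusted p = 0.0577). Acaca, the acetyl-CoA carboxylase that makes malonyl-CoA, had group means of 3.55 to 3.99, and int minus none was 0.01 (95% interval -0.36 to 0.39) on day 10 and 0.20 (-0.15 to 0.55) on day 30. Scd1, the stearoyl-CoA desaturase, was dim. Its naive arrays read 3.42, 2.48, 3.83, 4.02 and 2.61, with both arrays of high B cell and myeloid signal at the top, and its other group means lay within 2.68 to 3.15. None on day 30 minus naive was -0.54 for Scd1 (adjusted p = 0.162) and -0.10 without those naive arrays. The desaturase genes Fads1 and Fads2 had group means of 3.81 to 4.43 and 2.72 to 3.19.

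The exporters are regulated opposite to the synthesis genes in the textbook scheme. Abca1, which passes cholesterol to apolipoproteins, read 4.85, 4.42, 4.48 and 3.82 in int cells of day 10 and 4.16, 3.74, 3.68, 4.03 and 3.58 in none. Of the int arrays, 3 lay above all none arrays, and the difference was 0.55 ± 0.21 (95% interval 0.13 to 0.98, limma adjusted p = 0.297). Abca1 passed the F test (adjusted p = 0.0119), with its lowest mean in off cells, whose arrays read 3.18, 3.53, 3.58, 3.29 and 3.54. Off minus none was -0.44 ± 0.20 (adjusted p = 0.394). Abcg1, an exporter to HDL, had group means of 5.72 (high) to 6.33 (int, day 10), and int minus none on day 10 was 0.49 ± 0.23 (adjusted p = 0.516).

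Arrays of a group did not rank alike across the cholesterol enzymes. After group means were taken out, the 66 pairs among the 12 enzymes with a mean of at least 4 had a median Pearson correlation of 0.058 over 43 arrays (Spearman 0.054), from -0.45 to 0.39, beside a median of 0.037 over all pairs of 8412 genes at this level. These are descriptions, since the values of an array share its amplification and normalization. Fdps with Sqle (0.39) and Fdft1 with Ebp (0.39) were the most alike. Over the 9 group means, the genes whose pattern was most like the mean of the 16 cholesterol enzymes were Hvcn1 (Pearson r = 0.946), Snrpd3 (0.942), Ino80e (0.935) and Txnrd1 (0.925). They were picked as the highest among many genes over only 9 points, and shared regulation was not tested.

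Related genes outside the 34 were counted in lists. Of 12 measured genes of other sterol synthesis, uptake and storage steps, limma called 0 in int or high against none on day 10 (1.24% and 5.25% of all genes). It also called 0 in int against none or off against int on day 30 (2.21% and 0.464%). In these 4 comparisons 1, 0, 2 and 4 of the 12 had an unadjusted p under 0.05, beside 8.88%, 16.3%, 13% and 7.58% of all genes. Of 23 measured genes of fatty acid supply, high against none called 2 higher and 1 lower (5.25% of all genes in either direction, 2.77% higher). Fabp5, a fatty acid binding protein, was higher by 2.09 ± 0.65 (limma adjusted p = 0.0467), and Slc25a1, which exports the citrate that Acly cleaves, by 0.94 ± 0.28 (adjusted p = 0.034). Acss2, which makes acetyl-CoA from acetate, was lower by -1.22 ± 0.23 (adjusted p = 0.000262), and it was lower in low than in none cells on day 30 as well (-1.10 ± 0.21, adjusted p = 0.00374). Against naive cells, high called 1 of the 23 higher and 1 lower (4.82% of all genes), and neither was Fabp5 or Slc25a1. None on day 10 against naive called 1 of the 23, Fabp5, as lower (3.3% of all genes in either direction). Int against none called 0 of the 23 on day 10 (1.24% of all genes) and on day 30 (2.21%). On day 10, 1 had an unadjusted p under 0.05 and on day 30, 5 did, beside 8.88% and 13% of all genes.

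Of 16 measured fatty acid oxidation genes, high against none called 3 higher, beside 2.77% of all genes. They were Acadl, an acyl-CoA dehydrogenase (1.06 ± 0.27, limma adjusted p = 0.0114), Eci1, an enoyl-CoA isomerase (0.77 ± 0.21, adjusted p = 0.0198), and Etfa, an electron transfer flavoprotein subunit (0.66 ± 0.20, adjusted p = 0.0343). Int against none called 0 of 16 on day 10 (1.24% of all genes), with 1 at an unadjusted p under 0.05 (8.88% of all genes). On day 30 it called 1 (2.21% of all genes), Etfb, the partner subunit of Etfa (0.79 ± 0.18, adjusted p = 0.0104). Against naive cells, high called 2 of the 16 as higher (2.91% of all genes), Etfb and Eci1, but not Acadl or Etfa. None on day 10 against naive called 1 of the 16, Etfa, as lower (3.3% of all genes in either direction). Among 11 measured LXR and oxysterol genes, Gpr183, the receptor by which lymphocytes follow an oxysterol, was lower in int than in none cells on day 10 (-1.55 ± 0.22, adjusted p = 8.92e-06) and on day 30 (-0.77 ± 0.21, adjusted p = 0.0303). No other gene of that list was called there, where limma called 1.24% and 2.21% of all genes. High against none called 0 of the 11 (5.25% of all genes). High against int called Gpr183 alone of that list, as higher (2.99% of all genes in either direction, 1.4% higher).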

How the data were processed

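RNA of sorted CD4 T cells was measured on 43 single-colour arrays, amplified from small amounts (Ovation Pico WTA V2) and labelled with biotin, per the labels' protocols. The authors deposited log2 signals, which were taken unchanged (1.46 to 13.87, array medians 3.28 to 3.44). The base of the log follows from their range, and how the authors corrected, summarized and normalized them was not stated in the labels used. The floor of the scale compresses differences of dim genes.

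Of 41345 probe sets, 23521 carried 1 symbol, 1814 several and 16010 none. For each of 22180 genes the single-symbol probe set with the highest mean was kept. A mean per group was fitted over all arrays in limma 3.58.1 (R 4.3.3; lmFit, eBayes with a trend), with Benjamini-Hochberg adjustment over all genes, a threshold of 0.05 and 95% intervals. The script was tested on simulated data. No 2 arrays were identical. The number of arrays limits precision.

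The members and gene lists were chosen with earlier results of these data known. All 34 members could be named. Hmgcs1, Sqle, Insig1, Srebf1, Srebf2, Fasn, Acaca, Scd1, Abca1 and Abcg1 were fixed for every value, with up to 8 called members a comparison, up to 4 called genes of each other list, and the genes most like the enzyme mean among those with a mean of at least 5. Other members nearest to a call were added after their values were seen. The F test over the 9 groups was added after the data had been seen. Same-numbered replicates did not deviate together (not every correlation above 0.1 in any comparison), so samples were not paired. Alternatives were other scalings, a filter at a mean of 4, array weights, no variance trend, a replicate block, only the groups compared, all probe sets of a gene, and arrays left out.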

Additional observations from a re-analysis of the deposited data

Results flagged for a closer look

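Dixon's gap test was run on the 30 measured genes and the 3 mean levels in each of 9 groups, 297 sets of arrays in all. It found 9 with an array far from the others, where chance flags about 1 in 20. On day 10, Fdps read 4.67 in high replicate 5, with the next array at 5.63. Mvk read 3.5 in low replicate 5, with the next at 4.07, and 3.77 in int replicate 4, with the next at 4.02. Low replicate 4 was apart for Msmo1, at 4.37 with the next at 5.12, and for Scd1, at 4.15 with the next at 3.08. Fads2 read 3.05 in int replicate 3, with the next at 2.65. On day 30, Hmgcs1 read 6.6 in int replicate 3, with the next at 5.38. Fasn read 4.88 in none replicate 2, with the next at 5.64. Pmvk read 5.4 in off replicate 4, with the next at 4.86.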

How the results depend on the processing

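Of 529 values of 66 results recomputed under other settings, 472 were counted as the same, 26 lost a call or part of a count, 28 gained one and 3 moved. The cause of these changes was not tested. A single gene counted as the same when its direction and side of the threshold held, whatever its size, and 0 single genes reversed. A mean level counted as the same when it shifted by less than the SD within groups, and its direction was not checked. Over all members, high minus none was -0.07 as deposited and up to 0.02 under other settings, all counted as the same. Array weights called 1 member in int against none on day 10 (Srebf2), 2 in high against int (Pmvk and Elovl6), 0 in int against low on day 30 and 1 in int on day 30 against day 10 (Fdft1). Quantile normalization called 2 in high against none (Pmvk and Acly), 2 in int against none on day 30 (Sqle and Mvd), 2 in int against low on day 30 (Sqle and Elovl6) and 0 in none on day 30 against day 10. Without dim genes, 2 were called in high against none, 2 in high against int, 2 in int against low and 2 in off against int on day 30 (Insig1 and Nsdhl), and 1 in int on day 30 against day 10. With the replicate block, 2 were called in int against none and 2 in int against low on day 30, and 0 in none on day 30 against day 10, where centring also gave 0. The block changed no other count of members called. With only the groups compared, 0 were called in int against none, int against low and off against int on day 30, in none of either day against naive and in none on day 30 against day 10, and 1 in int on day 30 against day 10. Without naive replicates 3 and 4, none of either day against naive called 0. Leaving out none replicate 4 and high replicate 2 of day 10 as well, none on day 30 against naive called 0.

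Leaving out 1 array at a time gave 1 to 2 members in high against none, 1 to 3 in high against int, 1 to 2 in int against none on day 30, 0 to 2 in int against low and in off against int on day 30, 0 to 1 in none on day 10 against naive, 0 to 2 in none on day 30 against naive, 0 to 1 in int on day 10 against naive, 2 to 3 in high against naive and 0 to 1 in none on day 30 against day 10. Mean levels moved in 3 cases. After quantile normalization, none on day 30 minus day 10 was -0.04 over all members (-0.18 as deposited) and 0.05 over the cholesterol enzymes (-0.11 as deposited). Without dim genes the fatty acid genes stood 0.39 higher in none on day 10 than in naive cells (0.19 with them). Scaling moved the median of all genes by at most 0.055.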
